A study of Mus musculus with 8 samples.

Results

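The regions described here are the wide stretches of mouse autosomes that Cut & Tag peaks covered in brown adipocytes with and without Cars2. Cut & Tag cuts and tags DNA where an antibody has bound, and a peak caller then lists the intervals with more reads than their surroundings. The peaks of 8 deposited lists were merged wherever they overlapped by at least 1 bp, and every merged region on chromosomes 1 to 19 that was wider than 10.0 kb was kept. This gave 294 wide regions of 1087 merged autosomal regions (27.05%), out of 1355 merged regions on all chromosomes and contigs. The regions were thus selected on their width and position over all 8 lists, and both are given as descriptions without a test.

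The study asked how loss of Cars2, the mitochondrial cysteinyl-tRNA synthetase that also makes cysteine persulfide, alters the genomic occupancy of the transcription factor EBF2 in brown adipocytes. The cells (BAC) were taken from newborn mice homozygous for a floxed Cars2 allele (Cars2 flox/flox), from the interscapular brown fat depot, and were immortalised with SV40 large T antigen. A retrovirus with hygromycin selection then brought in Cre recombinase (Cre) or nothing but the vector (Vec). The Vec cells are labelled BAC-V with genotype WT and the Cre cells BAC-Cre with genotype CarS2-KO, so that both share the floxed alleles, the immortalisation and the retroviral infection. All were differentiated with IBMX, indomethacin, dexamethasone, insulin and T3, and 50000 cells entered each assay. Each combination of antibody (EBF2 or H3K27ac) and cell type (Vec or Cre) has 2 libraries. Nothing in the labels says that the 2 libraries of a group came from separate cultures, so a p-value measures only the spread between these libraries.

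The lists hold 533 to 902 peaks each and no reads per site. How deeply each library was sequenced is therefore unknown, and no interval for counting error can be given. EBF2 Vec replicate 2 stood apart, with the fewest peaks (533), peaks in 131 wide regions against 184 to 256 in the other libraries, and 37.6 Mb of wide regions covered against 46.6 to 51.4 Mb. The comparisons of covered length that rest on it are given with and without it, as are several counts of regions. Other values are given only with it. Peak names inside 1 EBF2 Vec list and 1 EBF2 Cre list carry other sample names (WT and Cars2AKO), and the groups here follow the labels. Of 33 adipose and other cell markers looked up, such as Ucp1, Adipoq and Pparg, 32 were found in the gene table and 0 lay in any merged autosomal region, so these peaks give no check of the labelled cell type.

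EBF2 is a helix-loop-helix factor that, together with PPARγ, opens chromatin at genes of the brown fat programme, and it binds a palindromic motif. H3K27ac, acetylation of lysine 27 on histone H3, marks active promoters and enhancers, where its domains are usually short. Many gene families of the mouse genome have instead grown by repeated duplication, so that many similar genes stand side by side in tandem arrays. The best known arrays hold vomeronasal receptors, which detect pheromones, major urinary proteins, which carry pheromones, alpha-defensins, histones and zinc finger proteins.

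The promoters of genes in the wide regions are shown first, mainly as pairs of genes of 1 family in 1 region whose promoters are among the most alike. Most pairs in a common region differ more: 532 of 2212 Vmn1r pairs, 10 of 105 Defa pairs, 1 of 43 Zfp pairs and 1 of 345 histone pairs differed at 30 bases or fewer. The sequences come from RefSeq (GRCm38.p6) and reach from 250 bases before the annotated start of a gene to 50 bases after it, 300 bases in all. Each is written 5′ to 3′ on the strand of its gene, and capitals mark bases that differ from the partner printed with it. The vomeronasal receptors Vmn1r101 (chr7:20442544-20442843, minus strand) and Vmn1r149 (chr7:22438180-22438479, minus strand) lie in 1 wide region and have identical promoters.
Vmn1r101 and Vmn1r149: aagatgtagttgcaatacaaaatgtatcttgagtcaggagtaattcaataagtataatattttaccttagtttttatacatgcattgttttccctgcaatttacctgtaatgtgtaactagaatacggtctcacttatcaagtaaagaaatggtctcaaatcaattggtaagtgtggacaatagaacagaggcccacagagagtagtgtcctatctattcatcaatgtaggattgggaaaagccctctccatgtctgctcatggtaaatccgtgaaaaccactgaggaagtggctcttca
The promoters of Vmn1r122 (chr7:21134079-21134378, minus strand) and Vmn1r159 (chr7:22843556-22843855, minus strand), in the same region, differ at 1 base, A67T, counted from 1 at the 5′ end of the printed sequence.
Vmn1r122: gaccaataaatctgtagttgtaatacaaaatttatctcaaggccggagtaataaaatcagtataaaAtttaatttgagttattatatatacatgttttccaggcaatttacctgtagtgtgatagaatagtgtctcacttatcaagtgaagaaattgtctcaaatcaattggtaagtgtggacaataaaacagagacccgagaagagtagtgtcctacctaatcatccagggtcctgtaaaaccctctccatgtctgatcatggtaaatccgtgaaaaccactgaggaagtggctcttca
Vmn1r159: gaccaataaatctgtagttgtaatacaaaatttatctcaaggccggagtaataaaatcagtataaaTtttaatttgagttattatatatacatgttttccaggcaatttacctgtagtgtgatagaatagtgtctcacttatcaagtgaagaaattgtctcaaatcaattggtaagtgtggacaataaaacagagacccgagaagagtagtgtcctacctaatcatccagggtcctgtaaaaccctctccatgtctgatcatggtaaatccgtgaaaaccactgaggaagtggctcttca
The histone genes H2bc23 (chr13:21810150-21810449, minus strand) and H4bc24 (chr13:21833493-21833792, plus strand, named as in the gene table) have identical promoters on opposite strands.
H2bc23 and H4bc24: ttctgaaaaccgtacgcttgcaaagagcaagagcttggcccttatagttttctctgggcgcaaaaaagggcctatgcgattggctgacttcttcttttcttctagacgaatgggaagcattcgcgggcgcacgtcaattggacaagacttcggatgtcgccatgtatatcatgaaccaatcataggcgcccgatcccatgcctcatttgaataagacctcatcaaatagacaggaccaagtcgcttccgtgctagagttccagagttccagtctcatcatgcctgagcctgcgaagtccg
The alpha-defensin genes Defa35 (chr8:21064788-21065087, plus strand) and Defa36 (chr8:21427178-21427477, plus strand) were added after their values were seen, as a family in which nearly every member lay inside a wide region. Their promoters differ at 6 bases (T131G, T165G, G174A, G241A, C246T and A254C, Defa35 first).
Defa35: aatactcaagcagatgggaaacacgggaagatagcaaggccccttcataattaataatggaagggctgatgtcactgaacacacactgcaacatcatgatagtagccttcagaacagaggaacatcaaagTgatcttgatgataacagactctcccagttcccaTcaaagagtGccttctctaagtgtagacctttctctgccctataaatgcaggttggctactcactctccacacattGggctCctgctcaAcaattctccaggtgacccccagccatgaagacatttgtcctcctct
Defa36: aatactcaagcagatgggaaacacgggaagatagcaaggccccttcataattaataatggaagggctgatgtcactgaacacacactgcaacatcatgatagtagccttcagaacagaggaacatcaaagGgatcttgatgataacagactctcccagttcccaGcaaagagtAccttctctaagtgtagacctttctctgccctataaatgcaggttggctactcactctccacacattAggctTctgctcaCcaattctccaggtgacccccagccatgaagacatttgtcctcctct
Lamtor3-ps (chr14:6425573-6425872, minus strand), which the gene table lists as protein-coding, lies in the widest region and shows a gene without a partner of the same name stem.
Lamtor3-ps: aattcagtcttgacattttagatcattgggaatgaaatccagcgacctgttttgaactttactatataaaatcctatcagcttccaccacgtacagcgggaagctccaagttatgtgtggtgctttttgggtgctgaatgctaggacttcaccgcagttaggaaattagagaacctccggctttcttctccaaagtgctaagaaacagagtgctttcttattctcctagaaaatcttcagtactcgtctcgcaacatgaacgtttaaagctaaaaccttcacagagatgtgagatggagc

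Sequence shared between genes was common in the wide regions. Of 25748 autosomal genes with a promoter in the table, 851 had it in a wide region, and 662 of these (77.8%) shared a run of at least 50 identical bases with the promoter of another gene, against 7.35% of all autosomal genes. Outside the wide regions the share was 4.94%. Among protein-coding genes, 533 of 653 promoters in wide regions (81.6%) shared such a run, against 8.22% over all autosomes. The 738 promoters in regions covered by all 8 lists shared a run in 81.7% and the 113 in regions of fewer lists in 52.2%, as the plot of shared promoter runs shows. The rule did not use sequence, and these shares are descriptions over genes that are not independent of each other.

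**Figure D1:**
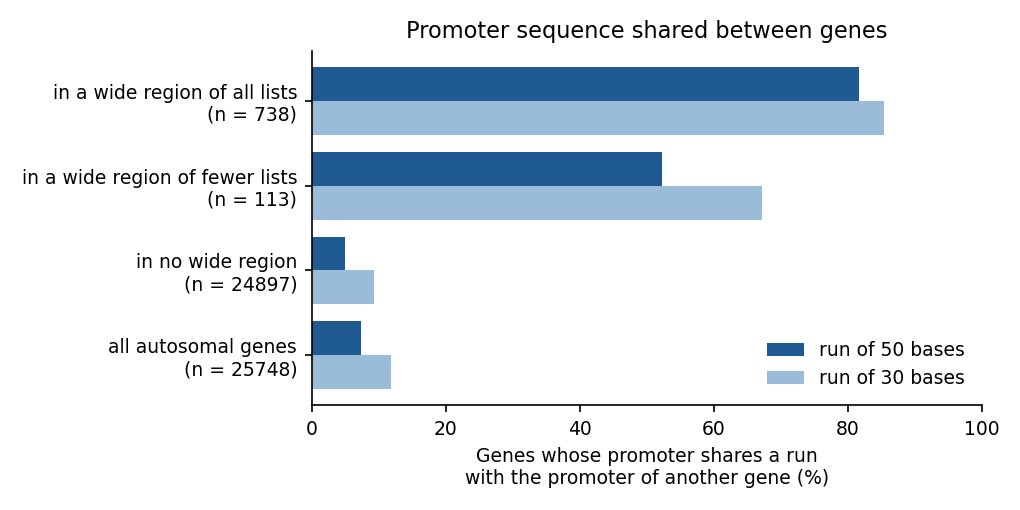
Share of genes (%) whose 300-base promoter holds a run of 50 or 30 bases that also occurs in the promoter of another gene, by where the promoter lies. The bars for wide regions (81.7% and 52.2% for 50 bases) stand above the bar for genes in no wide region (4.94%).

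The families differed in this respect, inside the wide regions and outside. All 17 Vmn2r promoters in wide regions shared a run (63.5% of all autosomal Vmn2r promoters did), as did all 11 Pramel promoters (63.9%) and all 9 Mup promoters (85.7%). A run was also shared by 67 of 69 Vmn1r promoters in wide regions (55.1% of all autosomal ones) and by 20 of 25 Zfp promoters (14.2%). For Defa (13 of 15, against 87.5%) and the histones (8 of 37, against 17.1%) the promoters in wide regions were close to their whole family. Only 1 of 345 histone pairs in a common region was identical, against 51 of 2212 Vmn1r pairs, 4 of 105 Defa pairs (Defa2 and Defa20 among them) and 1 of 43 Zfp pairs. The promoters in wide regions had a median GC content of 47.0% and a median of 3 CpG sites, against 53.0% and 7 over all autosomal genes. The EBF motif (TCCC, any 2 bases, GGGA), the only one searched, on both strands, occurred in 3 of 851 promoters in wide regions (0.353%), those of Ceacam1, Gm7954 and Gm3072, against 1.08% of all autosomal promoters. This says only that these letters were rare in these windows.

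The 294 wide regions held nearly all of the covered sequence. They spanned 57.3 Mb of the 59.1 Mb in merged autosomal regions (97.0%), and the 793 narrower regions the other 1.78 Mb. Their median width was 48.5 kb (quartiles 21.0 and 166 kb), and the widest measured 4.65 Mb. The 102 regions over 100 kb held 88.7% of the length, and the 11 regions over 1 Mb held 39.5%. Just over the limit lay regions of 10.091 kb at Phf11c on chromosome 14, 10.094 kb at Zfp983 on chromosome 17 and 10.164 kb at Gng12 on chromosome 6, each from 1 list. Just under it lay regions of 9.68 kb at 4933427D14Rik (1 list), 9.648 kb at Bbs9 (3 lists) and 9.527 kb at Wdfy1 (8 lists).

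The wide regions were spread unevenly over the autosomes, as the plot by chromosome shows. Chromosome 7 had 31 of them with 10.4 Mb (18.2% of their length) and chromosome 14 had 16 with 9.56 Mb (16.7%). Together with chromosomes 4 (24 regions, 6.37 Mb) and 2 (26 regions, 4.63 Mb) they accounted for 54.0% of the length. Chromosomes 16 and 18 had 4 wide regions each, with 0.262 and 0.233 Mb. Many stood close together, since 91 of the 294 fell into 30 runs with gaps of at most 100 kb. The longest runs held 7 regions each, at chr13:61795187-62133140 around Gm3325 and Zfp808 and at chr6:133296308-133455607, which holds no protein-coding gene.

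**Figure D2:**
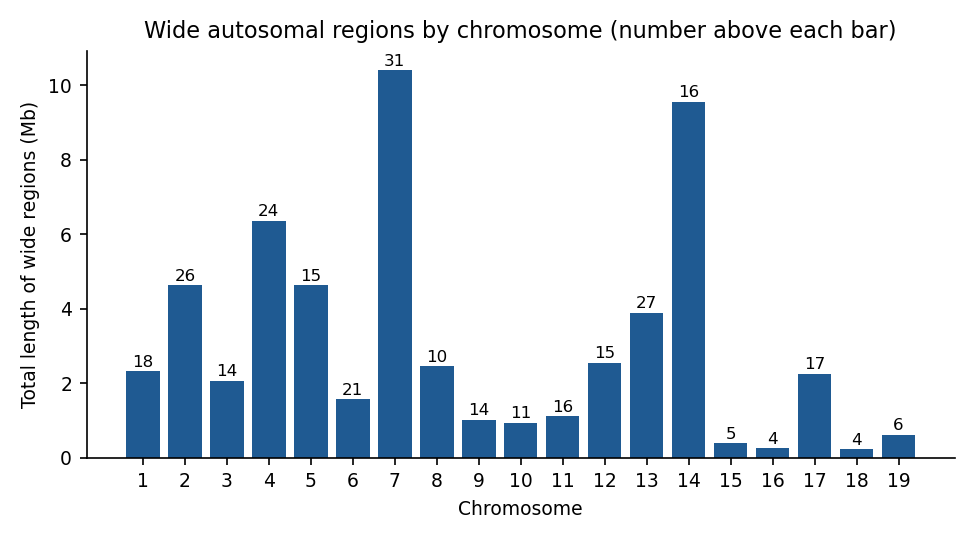
Total length of the wide regions (Mb, bars) on each autosome, with the number of regions above each bar. Chromosomes 7 and 14 carry the most length (10.4 and 9.56 Mb), and chromosomes 15, 16 and 18 carry 0.390, 0.262 and 0.233 Mb.

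The 10 widest regions held 21.6 Mb (37.6% of the length), and all 25 of the widest 25 were found in every list. The widest, chr14:3011958-7662805 near the start of the chromosome, contains 76 protein-coding genes, of which 69 carry Gm numbers, the provisional names of predicted mouse genes. Peaks covered 99.2% and 95.9% of it in the EBF2 Vec libraries, 99.3% and 99.9% in EBF2 Cre, 99.7% and 99.8% in H3K27ac Vec, and 99.9% and 99.6% in H3K27ac Cre. The lowest value came from EBF2 Vec replicate 2, and the other 7 libraries lay within 1 percentage point of each other.

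The second widest region was the receptor array chr7:20121377-23272076 (3.15 Mb), with 69 Vmn1r genes. Its covered share was 97.7% and 82.1% in EBF2 Vec, 96.9% and 98.0% in EBF2 Cre, 100% and 97.4% in H3K27ac Vec, and 95.5% and 91.7% in H3K27ac Cre. Cre and Vec libraries overlapped for EBF2, and for H3K27ac both Vec values were above both Cre values. The third, chr2:175604653-178072950 (2.47 Mb), holds 7 Zfp genes among 24 protein-coding genes, and was covered to 71.0% in EBF2 Vec replicate 2 and to at least 97.8% in the other 7 libraries. The fourth, chr14:41335879-43636306 (2.30 Mb), holds 33 protein-coding genes, nearly all with Gm or Rik names, and its share ran from 89.9% to 99.6%.

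The fifth, chr5:93774494-95802390 (2.03 Mb), holds 16 Pramel genes, relatives of a melanoma antigen that are known from the germ line, and was covered to between 96.8% and 99.7% in every library. The sixth, chr4:145505484-147386451 (1.88 Mb), holds 10 Zfp genes and Rex2, with shares from 84.8% to 99.6%. The seventh, chr4:60044688-61780841 (1.74 Mb), holds 16 Mup genes and was covered to 96.2% and 96.9% in EBF2 Vec, 98.0% and 97.7% in EBF2 Cre, 96.5% and 97.2% in H3K27ac Vec, and 99.2% and 98.8% in H3K27ac Cre. Both Cre libraries lay above both Vec libraries for either antibody in this region. The eighth, chr7:8005011-9156222 (1.15 Mb, 8 Vmn2r genes), was patchier, with shares from 21.9% to 80.9% and up to 23 separate peaks in 1 library. The ninth, chr8:19681266-20816600 (1.14 Mb), holds 5 protein-coding genes with Gm or Rik names, and its lowest share was 95.4%. The tenth, chr4:41779628-42847227 (1.07 Mb), holds the chemokine genes Ccl19, Ccl21a, Ccl21b, Ccl21d and Ccl27b together with the interleukin-11 receptor gene Il11ra2, and its shares ran from 87.6% to 100%.

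Wide regions recurred between lists more often than narrow ones. Of the 294, 116 (39.5%) had a peak in all 8 lists, against 10.8% of all merged autosomal regions, and only 1 of the 793 narrow regions did. At the other end, 30 wide regions (10.2%) and 576 narrow regions (72.6%) came from 1 list. Width was part of the choice, and a wide region offers more room for a peak of each list, so the share was not tested. The 116 regions held 47.4 Mb (82.7% of the length), with a median width of 179 kb against 26.2 kb for those in fewer lists. Of the 33 regions found in 7 lists, 27 lacked only EBF2 Vec replicate 2. The 30 regions from 1 list had a median width of 13.6 kb, and 22 came from H3K27ac lists, 10 of them from H3K27ac Vec replicate 1.

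**Figure D3:**
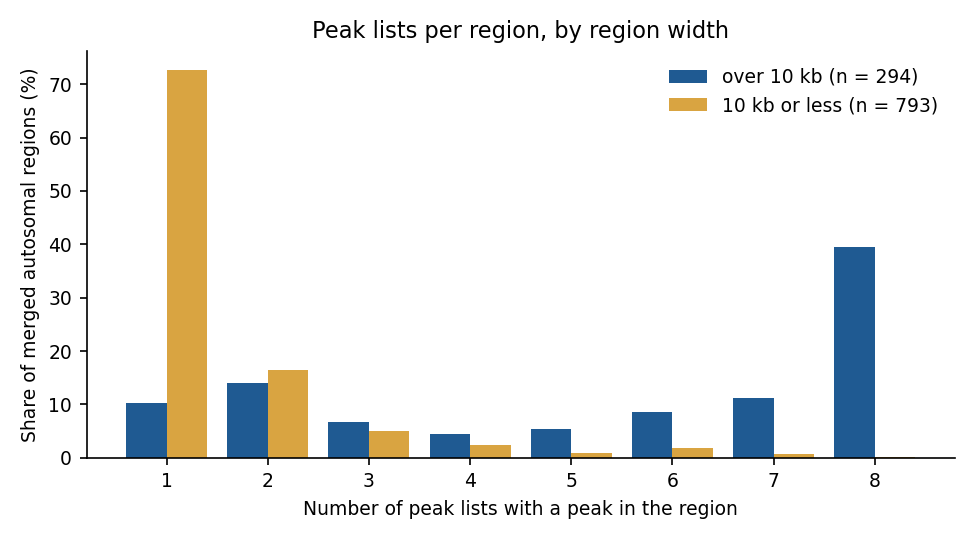
Share of merged autosomal regions (%) by the number of the 8 peak lists that have a peak in them, for 294 regions over 10 kb and 793 regions of 10 kb or less. Of the wide regions 39.5% are in all 8 lists, and 72.6% of the narrow regions are in 1.

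Being in all lists did not mean full coverage. In the 116 regions, the stretch covered by all 8 lists at once had a median of 66.2% of the width. Each library covered more than 90% of the region in 18 of them, or in 31 when EBF2 Vec replicate 2 is left out. A single peak stood in every list in 38. EBF2 summits, the points of highest signal of the strongest EBF2 peak, agreed within 1 kb among the 4 EBF2 libraries in 11 of 116 regions (18 without EBF2 Vec replicate 2). Their median spread over all 4 was 17.8 kb, and a spread can only fall or stay when a library is left out. Without EBF2 Vec replicate 2 it fell from 912 kb to 284 bp in chr14:41335879-43636306. In chr5:10870277-11914974 it stayed at 204 kb. The tightest summits, within 48 bp, were in chr9:3000118-3026660, which holds no annotated gene. They lay at 3000548 to 3000596, near the start of that region and of the chromosome. A spread of 115 bp followed in the region of Tmem267 on chromosome 13. The region of Mndal, Ifi211, Ifi203 and Ifi202b, interferon-inducible genes on chromosome 1, had 128 bp.

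The peaks over 10 kb were also the stronger ones within each list. Their median fold enrichment over the local background, as the authors' peak caller gave it, was 4.78 and 6.13 in EBF2 Vec and 5.10 and 4.05 in EBF2 Cre, against 2.15 to 2.93 for narrower EBF2 peaks. For H3K27ac it was 2.61 and 2.72 in Vec and 2.95 and 2.83 in Cre, against 1.64 to 1.95. The callers ran in different modes for the 2 antibodies, so the sizes of folds are set side by side only within an antibody. Across antibodies only ranks of folds are used.

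The strongest region by mean rank of its highest fold was chr14:69255336-69689045, which ranked between 1 and 3 in every list. It holds Slc25a37, the mitochondrial iron importer mitoferrin of erythroid cells, Synb, a syncytin of the placenta, Entpd4, Entpd4b and Loxl2. Its highest fold was 79.6 and 70.7 in EBF2 Vec, 65.7 and 55.5 in EBF2 Cre, 74.2 and 71.3 in H3K27ac Vec, and 76.0 and 89.3 in H3K27ac Cre. Both EBF2 Vec values were above both EBF2 Cre values and both H3K27ac Cre values above both H3K27ac Vec values, but a fold depends on the depth of its library, which is unknown. Next came the chemokine region of chromosome 4 (ranks 1 to 4) and chr14:25876841-26288408 with Anxa11, Plac9a, Tmem254a, Cphx1 and Duxbl1 (ranks 2 to 4). Over the 116 regions in all lists, the folds of libraries with the same antibody had Spearman correlations of 0.893 to 0.965 (12 pairs) and those with different antibodies of 0.811 to 0.893 (16 pairs). These describe regions that share the genome sequence and the cells, and no p is given.

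The genes inside were mainly members of tandem families and predicted genes. Any part of 881 of 20665 autosomal protein-coding genes lay in a wide region (4.26%), and 692 lay wholly inside one. Of the 881, 332 (37.7%) carry Gm numbers, against 4.67% of all autosomal protein-coding genes. Protein-coding genes occurred in 203 of the 294 regions. Another 47 held other genes only, and 44 held no annotated gene. At least 5 protein-coding genes were in 46 regions, of which 42 were in all 8 lists. Of 38 family names looked up, 17 had at least 3 genes inside, with 265 genes together, and 13 had 0. Among the 13 were the Defb beta-defensins, the Nlrp genes, the Ifna interferons, the Klr natural killer receptors and the Psg glycoproteins. Families were counted by the prefix of the symbol, so relatives with other symbols are missed. Ifnz, an interferon gene with another prefix, lay in chr4:88757110-88806203 together with 13 Gm-numbered genes. That region was in all 8 lists, covered to between 87.4% and 100%.

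Chemosensory receptors were represented very unequally. The vomeronasal type 1 receptors had 71 of 230 autosomal genes inside, in 2 regions, and the type 2 receptors (Vmn2r) 23 of 122, in 7 regions. The olfactory receptors, the largest mouse gene family, had 3 of 1104 (0.272%), namely Olfr55, Olfr372 and Olfr1274. Most genes of either vomeronasal family therefore lay outside the wide regions, but a larger share of them lay inside than of the olfactory receptors. Within Vmn2r, the region with Vmn2r20, Vmn2r21 and Vmn2r22 was covered to at least 84.2% in every library, whereas that with Vmn2r34, Vmn2r35 and Vmn2r36 ranged from 1.62% to 98.3%.

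Secreted proteins, enzymes and protease inhibitors are described as a second set, a grouping made for reading and not tested. Of the alpha-defensins, antimicrobial peptides of intestinal Paneth cells, 26 of 29 genes lay in chr8:21029336-21682041, covered to 87.7% to 99.4%. Of the major urinary proteins, 17 of 22 lay in 2 regions. The amylases, enzymes of starch digestion, had 4 of 7 genes inside (Amy2a2 to Amy2a5), in a region of 125 kb with shares of 92.7% to 99.0%. The Scgb secretoglobins had 5 of 40 genes inside (widest region 466 kb) and the Prl prolactin-like hormones 3 of 26 (347 kb). The protease inhibitors of the Serpina group had 3 of 23 inside (161 kb) and those of the Serpinb group 3 of 28 (224 kb). The Ugt1a genes, which conjugate glucuronic acid to bilirubin and drugs, had 6 of 9 at least partly inside (32.2 kb). Of 8 Ugt1a promoters available, 2 lay in wide regions. Except for the Serpina and Ugt1a genes, the widest region of each of these families was in all 8 lists.

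Nuclear proteins formed the third set. Histones had 39 of 76 genes inside, 17 in chr13:21721479-22036196 and 22 in chr13:23542919-23753050. The first was covered to 88.6% and 71.2% in EBF2 Vec, 95.9% and 97.5% in EBF2 Cre, 98.0% and 100% in H3K27ac Vec, and 100% and 100% in H3K27ac Cre. The second was covered to 61.0% and 4.44% in EBF2 Vec, 93.4% and 74.7% in EBF2 Cre, 84.5% and 92.4% in H3K27ac Vec, and 99.6% and 100% in H3K27ac Cre. In both histone regions the Cre libraries lay above the Vec libraries for either antibody, without overlap, although for H3K27ac in the first region all but 1 library rounded to full coverage. The zinc finger genes had 35 of 388 inside, spread over 13 regions, and one of these, chr17:21962005-22356401 with Zfp942, Zfp943, Zfp944, Zfp947 and Zfp994, was covered by H3K27ac (58.9% to 99.7%) but hardly by EBF2 (0% to 25.3%). The remaining families were Pramel (16 of 45), Zscan (4 of 16, the Zscan4 genes of the early embryo, in a region of 727 kb), Speer (4 of 10, genes of spermatogenesis, widest region 1.04 Mb) and Obox (3 of 6, homeobox genes of the oocyte, 890 kb).

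Genes for structural RNAs and antigen receptor segments were also inside. For comparison, 2414 of all 47042 annotated autosomal genes lay in wide regions. Of 61 autosomal rRNA genes 49 (80.3%) lay in wide regions, 47 of them 5S rRNA genes in chr8:123537897-123621684, which every library covered to at least 96.6%. Of 391 tRNA genes 45 (11.5%) lay inside, 31 of them in the first histone region and 13 in chr1:171064118-171080867. Of 1286 snoRNA genes 195 (15.2%) lay inside, 114 in chr7:59363545-59603360 and 60 in chr7:59680624-59887580, 10 of the latter with Snord116-like names. Those 2 snoRNA regions were only partly covered, from 22.2% to 98.1% and from 57.1% to 99.4%. Of 394 variable segments of antigen receptors 109 (27.7%) lay inside, 84 of them T cell receptor alpha (Trav) segments in chr14:52843816-53728020. That region was covered to 50.3% in EBF2 Vec replicate 2 and to at least 89.9% elsewhere. Pseudogenes numbered 709 of 8884 (7.98%) and lncRNA genes 260 of 12408 (2.10%).

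Without regard to the families, 62 genes with no Gm or Rik name and no neighbour of the same name stem lay in regions of all 8 lists. The 15 in the widest regions were Lamtor3-ps, AA792892, Rex2, Il11ra2, Speer1, Mthfsl, Zfp640, Gpr31b, Unc93a, Spopfm2, Gvin1, Oog1, BB287469, Slc25a37 and Synb. All but Slc25a37 lay wholly inside, and 69.1% of the 43.7 kb of Slc25a37 did. Gvin1, an interferon-induced very large GTPase, lay in a region of 488 kb covered to 93.8% to 99.7%, and Oog1, an oocyte gene, in a region of 459 kb covered to 57.0% to 89.1%. Speer1 and Zfp640 belong to families counted above. AA792892 lay in the region of the Pramel genes and Rex2 in a region of Zfp genes.

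The main comparison asked whether loss of Cars2 changed how much of these regions was covered. The regions were chosen on the peaks of these same lists, and a region can pass the width limit through 1 group alone. The covered lengths are therefore not independent of the choice. The tests here and for H3K27ac describe the lists and cannot show a difference apart from that choice. EBF2 peaks covered 46.6 and 37.6 Mb in the Vec libraries and 48.3 and 48.1 Mb in the Cre libraries. The means were 42.1 ± 6.34 Mb (SD, n = 2) and 48.2 ± 0.107 Mb (SD, n = 2), a log2 difference of 0.20. Both Cre libraries were above both Vec libraries, but a two-sided exact permutation test of 2 against 2 gave p = 0.333, which is the smallest it can give. Against EBF2 Vec replicate 1 alone, without the library that stood apart, the log2 difference was 0.05, and without EBF2 Vec replicate 1 it was 0.36. The median over regions of the share covered, which gives each region the same weight, was 61.4% and 0% in the EBF2 Vec libraries and 64.6% and 64.7% in the EBF2 Cre libraries. The difference of the group means, 34.0 percentage points (exact permutation test, p = 0.333, the smallest possible), rests on EBF2 Vec replicate 2, where more regions lacked a peak than had one.

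H3K27ac peaks covered 51.4 and 48.8 Mb in Vec and 47.9 and 49.2 Mb in Cre. The means were 50.1 ± 1.81 Mb and 48.5 ± 0.926 Mb (SD, n = 2 each), a log2 difference of -0.05. The groups overlapped (two-sided exact permutation test, p = 0.667, with 0.333 the smallest possible). Single libraries moved this small difference, to -0.0082 without Vec replicate 1, -0.08 without Vec replicate 2, -0.03 without Cre replicate 1 and -0.07 without Cre replicate 2. The median share covered was 92.8% and 77.5% in Vec and 82.4% and 85.1% in Cre, a difference of -1.45 percentage points with overlapping groups. Over both cell types the EBF2 lists covered 45.2 ± 5.08 Mb and the H3K27ac lists 49.3 ± 1.48 Mb (SD, n = 4 each), a log2 difference of -0.13 with p = 0.0857 (two-sided exact permutation test, smallest possible 0.0286). Without EBF2 Vec replicate 2 it was -0.05 (p = 0.143, same exact test), and with only the higher-scoring peaks of each antibody -0.05 (p = 0.8, same exact test). This difference was not larger than the spread between libraries, and it compares lists called in different modes. Autosomal peaks over 10 kb numbered 226 to 249 in the H3K27ac lists and 130 to 205 in the EBF2 lists. The width limit can thus itself admit more H3K27ac length, and its part in the difference was not tested. By lists, 214 regions were in lists of both antibodies (72.8%, against 24.6% of all merged autosomal regions), 65 were in H3K27ac lists only (22.1%, against 63.6%) and 15 were in EBF2 lists only (5.10%, against 11.9%).

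**Figure D4:**
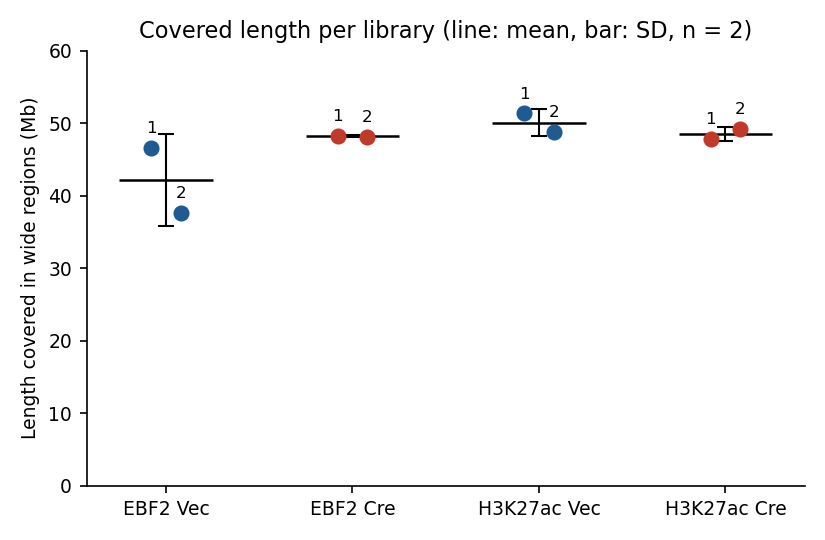
Length of wide regions covered by peaks (Mb) in each library (points, with replicate numbers), with the group mean (line) and SD (bar, n = 2). EBF2 Vec replicate 2 lies lowest at 37.6 Mb, and the other 7 libraries lie between 46.6 and 51.4 Mb.

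Single regions were not tested, since the exact permutation test of 2 against 2 libraries cannot give a p below 0.333. They are counted beside the share over all 1087 merged autosomal regions. The covered share was higher in both EBF2 Cre libraries than in both EBF2 Vec libraries in 77 of 294 wide regions (26.2%, against 7.82% over all regions) and lower in 8 (2.72%, against 1.1%). Against EBF2 Vec replicate 1 alone, 81 were higher (27.6%, against 8.19%) and 67 lower (22.8%, against 9.94%). The last 2 counts were not made on equal terms, since a lower region then needs a peak in 1 list and a higher one in 2. For H3K27ac, 35 were higher in both Cre libraries (11.9%, against 5.15%) and 57 lower (19.4%, against 7.54%). In 13 regions (4.42%, against 1.2%) the antibodies moved in opposite directions, which takes peaks in at least 4 lists. Leaving out single libraries, with the regions merged again, moved these counts. For H3K27ac there were 89 higher and 80 lower without Vec replicate 1, so that the balance turned, 47 and 134 without Vec replicate 2, 72 and 88 without Cre replicate 1, and 78 and 95 without Cre replicate 2. For EBF2 there were 147 higher and 16 lower without Vec replicate 1, 81 and 68 without Vec replicate 2, 112 and 15 without Cre replicate 1, and 113 and 14 without Cre replicate 2. Counts with 1 library left out, here and below, were not made on equal terms either. A region higher in the group with 1 library left needs a peak in 1 list, and one higher in the other group in 2. With all libraries, a region with peaks in 1 list cannot meet these criteria, and 72.6% of the narrow regions were of that kind.

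Regions with peaks in both libraries of 1 cell type and in neither of the other were fewer. In the EBF2 lists, 14 were seen in Cre only (4.76%, against 1.93%) and 2 in Vec only (0.680%, against 0.276%). These counts moved with single libraries, to 45 and 5 without EBF2 Vec replicate 1 and to 23 and 4 without EBF2 Cre replicate 2, and the Vec-only count to 14 without EBF2 Vec replicate 2. Width was taken over all lists, so a region can pass the width limit through the peaks of 1 group alone. The Cre-only regions at chr6:133312144-133455607 did so, with peaks in the 2 EBF2 Cre lists only. The counts are therefore descriptions and no evidence of a difference. Both Vec-only regions lie in the Ugt1a cluster of chromosome 1. The one with Ugt1a6a, Ugt1a6b, Ugt1a7c, Ugt1a8, Ugt1a9 and Ugt1a10 (chr1:88103500-88135657) was covered by EBF2 to 80.0% and 33.2% in Vec and 0% in both Cre libraries, and by H3K27ac to 100% and 99.2% in Vec and 85.6% and 71.9% in Cre. The one in Ugt1a10 alone (chr1:88041163-88063977) was covered by EBF2 to 69.2% and 18.9% in Vec. H3K27ac covered this second region to 61.7% and 72.6% in Vec and 75.5% and 99.5% in Cre, the direction opposite to EBF2. In both Ugt1a regions, all H3K27ac libraries had a peak.

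The Cre-only EBF2 regions with the highest scores were on several chromosomes. The first, chr4:53332784-53412052, holds the lncRNA gene Gm12496 and was covered by EBF2 to 98.8% and 92.7% in Cre and 0% in both Vec libraries. Its neighbours chr4:53414822-53432222, without an annotated gene, and chr4:53444735-53610960, in the choline transporter gene Slc44a1, behaved alike, with 98.4% and 53.9% and with 72.5% and 64.2% in Cre. A region on chromosome 15 (chr15:32778760-32916485, 138 kb) holds only the transcribed pseudogene Gm32618, and the Cre libraries covered 41.3% and 95.6%. The region chr2:10484044-10494867 lies in Sfmbt2 and holds 14 miRNA genes of the Mir466, Mir467 and Mir669 families, a cluster known from placenta, with 29.7% and 68.7% covered in Cre. The region in Tshr, the thyrotropin receptor that fat cells also express (chr12:91443321-91456524, 13.2 kb), was covered to 70.8% and 53.9% in Cre. In H3K27ac libraries the Tshr region was covered to 100% and 68.5% in Vec and 50.7% and 66.1% in Cre, so that the direction there was opposite. Named outside the rule, as was Slc44a1, 6 further Cre-only regions stood next to each other at chr6:133312144-133455607, where no H3K27ac list had a peak and Gm34149, a pseudogene, was the only annotated gene.

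H3K27ac showed 12 Vec-only regions (4.08%, against 2.3%) and 4 Cre-only regions (1.36%, against 1.66%). The Cre-only share was thus near the background. Here too a region can pass the width limit through the peaks of 1 group alone. The Vec-only count rose to 25 without H3K27ac Vec replicate 2 and to 23 without Cre replicate 2, and the Cre-only count to 14, 8 and 13 without Vec replicate 1, Cre replicate 1 and Cre replicate 2. Among the Vec-only regions, that of Mrgpra2a and Mrgpra2b, Mas-related receptors known from sensory neurons (chr7:47432884-47470668), was covered by H3K27ac to 44.9% and 85.9% in Vec and 0% in both Cre libraries, while EBF2 covered 94.1% and 59.1% in Vec and 46.9% and 70.3% in Cre. The region chr8:70068658-70123350 with Sugp1, Tm6sf2, Hapln4 and Ncan, of which Tm6sf2 is known for its part in lipid secretion, was covered to 90.7% and 98.6% in Vec. At Ttc39b on chromosome 4, 3 separate regions were Vec-only, the highest by score (chr4:83269192-83294974) with 100% and 81.1%. The other 2 Vec-only regions named by score were chr1:58759402-58790521 with the lncRNA gene Gm39646 (21.5% and 100%) and chr13:50695795-50735841 with Gm8765 (5.36% and 100%). The last 2 show that a region counted in both Vec lists may be covered mainly in 1.

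The 4 Cre-only H3K27ac regions held few genes. The dynein heavy chain genes Dnah7b and Dnah7c (chr1:46323879-46526323, 202 kb) were covered to 78.5% and 97.4% in Cre and 0% in both Vec libraries. The region in Pkd2l1, a taste and cerebrospinal fluid channel (chr19:44169659-44185229), was covered to 99.3% and 37.4%. The other 2 lie in Bbs9, a gene of the primary cilium, and were covered to 22.2% and 62.0% and to 11.8% and 100%. None of the 4 was covered by more than 21.7% in an EBF2 library.

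Few regions had peaks in every list of 1 antibody and in no list of the other. Peaks in all 4 H3K27ac lists and no EBF2 list were found in 5 wide regions (1.70%, against 1.66% over all regions), and the reverse in 0 (0% over all regions), so the share of wide regions was near the background. The 5 regions held Gm19470 and Gm906, Rhbdd1, Slc22a5, AA623943 and, in chr13:6712582-6732146, no gene. Slc22a5, the carnitine transporter that brings carnitine into cells for fatty acid oxidation, had H3K27ac peaks in a region of 21.0 kb (chr11:53871267-53892226), covered to 50.7% and 65.2% in Vec and 52.6% and 94.5% in Cre, with highest folds of 1.69 to 2.21. The Rhbdd1 region was covered to 94.3% and 89.5% in Vec and 27.3% and 50.8% in Cre, without overlap. The Slc22a5 folds were below the 13.1 to 89.3 reached by H3K27ac in the 10 strongest regions.

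Among regions found in all lists, the Vmn2r34 to Vmn2r36 region (chr7:7612856-7923708, 311 kb) differed most visibly between EBF2 groups. EBF2 covered 3.16% and 1.62% in Vec and 95.5% and 98.3% in Cre, and H3K27ac 95.3% and 92.9% in Vec and 6.23% and 87.8% in Cre. The EBF2 groups did not overlap, nor did the H3K27ac groups, where 1 Cre library was near the Vec values and the other far below. It was named after its values were seen. Its neighbour with Vmn2r31, Vmn2r32 and Vmn2r33 (chr7:7392443-7564787) was covered by EBF2 to 77.6% and 1.71% in Vec and 100% and 74.3% in Cre, so that the groups overlapped there. Large shifts between libraries of 1 group thus occurred next to shifts between groups in the same receptor array.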

How the data were processed

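Cut & Tag was performed on differentiated Vec and Cre (Cars2 knockout) BAC with antibodies to EBF2 and H3K27ac, 2 libraries per group. Per the submitters' notes, reads were handled with bcl2fastq 2.17, Trimmomatic 0.33 and HISAT2 2.2.1 on mm10, and peaks were called with MACS2 2.2.7. The authors deposited 1 peak list per library, narrow peaks for EBF2 and broad peaks for H3K27ac, with a score, a fold enrichment (ratio) and −log10 p and q values for each peak. An EBF2 list also gives the summit offset within each peak. Whether a control library was used, how reads that match several places were placed and whether duplicates were removed is not given in the sources used here. Repeated genes can share reads, and the part of this in the results was not tested.

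The lists hold no reads per site, so depth is unknown and no count test was possible. Peaks of all 8 lists were merged (at least 1 bp of overlap), and regions over 10000 bp on chromosomes 1 to 19 were kept. The share of each region covered by peaks of each list was computed. The sizes of folds and scores were compared only within a list or antibody, and across antibodies only ranks of folds were used. The covered length inside the regions was compared on the log2 scale with a two-sided exact permutation test (6 arrangements for 2 against 2, 70 for 4 against 4). Merging and counting were tested on simulated lists. Genes came from the RefSeq GRCm38.p6 gene table, whose assembly is that of mm10 and which gives no strand or exon. A gene counted as inside when any part of it lay in a region. Promoters (300 bases) were available for 25748 autosomal genes, and a promoter lying in a region was searched for a run of 50 bases found in the promoter of another gene.

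Named regions were the 10 widest and, per antibody, up to 5 seen in both libraries of 1 cell type only (by mean rank of score). Families with at least 3 genes inside were named, and up to 15 genes in regions of all lists. These 15 have no Gm or Rik name and no neighbour of the same name stem. The 3 regions on each side of the width limit are also given. The regions, gene lists and comparisons were chosen with earlier results of these data known. Alternatives were other width limits (5 and 20 kb), only peaks at or above the median score (29 for EBF2, 27 for H3K27ac), merging across 500 bp, coverage of at least 50% of a region, each library left out, a replicate block, the median share of a region covered, whole genes, all genes, and runs of 30 bases. Computations used scipy 1.17.1, pandas 2.3.3 and numpy 2.4.6 in Python 3.11.15, and figures matplotlib 3.10.9.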

Additional observations from a re-analysis of the deposited data

Results flagged for a closer look

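In 13 wide regions the covered share moved in opposite directions in the EBF2 and H3K27ac lists, with both Cre libraries on one side of both Vec libraries for EBF2 and on the other side for H3K27ac. These were 4.42% of the wide regions, against 1.2% of all 1087 merged autosomal regions, most of which had peaks in too few lists to meet the criterion. Leaving out 1 library at a time, added after seeing the data, gave 19 to 33 such regions, with 20 without EBF2 Vec replicate 2, 33 without EBF2 Vec replicate 1 and 33 without H3K27ac Vec replicate 2. With 1 library left out the criterion can be met with fewer lists, so these counts are not on equal terms with the 13. In 11 of the 13 regions EBF2 was higher and H3K27ac lower in Cre, among them the regions of Vmn2r34 to Vmn2r36, of the Pramel cluster, of Smok3a, Smok3b and Smok3c, and of Tshr. The sizes of the moves differed widely. EBF2 covered the Vmn2r34 to Vmn2r36 region to 3.16% and 1.62% in Vec and 95.5% and 98.3% in Cre. In the Pramel cluster EBF2 covered 97.5% and 96.8% in Vec and 98.2% and 98.2% in Cre. In the other 2 EBF2 was lower and H3K27ac higher in Cre, in Ugt1a10 and in chr6:114491811-114633850, which holds no gene. The move was small in the chromosome 6 region, where EBF2 covered 95.2% and 96.5% in Vec and 94.5% and 94.7% in Cre. The difference between the antibodies was not tested.

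Outside the autosomes, 146 wide regions were found in the same way and belong to none of the comparisons above. The X chromosome had 38 with 18.02 Mb, the Y chromosome 101 with 47.4 Mb and unplaced or random contigs 7 with 1.60 Mb, together 67.0 Mb.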

How the results depend on the processing

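For 18 results, 230 alternatives were computed, and 38 values moved. A count or length was taken to move when it changed by more than 1.5 times, and a share when it left its 95% Wilson interval. The log2 differences between Cre and Vec were held only to their sign, since the exact permutation test of 2 against 2 libraries cannot reach the threshold of 0.05. That between the antibodies was held to its sign and its side of 0.05. None of the log2 differences changed in this respect, which says nothing of their size: the EBF2 difference fell from 0.20 to 0.05 without EBF2 Vec replicate 2. The counts of lower and of opposite regions were added after seeing the data. The count of H3K27ac regions seen in Cre only was 7 with a width limit of 5 kb, 2 with 20 kb and 0 with the stricter score threshold. The stricter threshold also gave 7 H3K27ac regions seen in Vec only and 23 with a higher and 32 with a lower share in both Cre libraries. The EBF2 regions seen in Cre only numbered 8 with the 20 kb limit, and those seen in Vec only 0 when at least 50% of the region had to be covered. With all annotated genes 2414 lay inside, and runs of 30 bases were shared by 83.0% of promoters. The cause of these moves was not tested, apart from the wider gene set and the shorter run, which differ by construction. Leaving out 1 library at a time gave 2 to 14 EBF2 regions in Vec only, 14 to 45 in Cre only, 76 to 147 higher and 7 to 68 lower in both Cre libraries. For H3K27ac it gave 12 to 25, 3 to 14, 34 to 89 and 57 to 134. It gave 19 to 33 regions of opposite direction, 279 to 300 wide regions, 116 to 144 in all lists and log2 differences of 0.05 to 0.36 for EBF2, -0.08 to -0.0082 for H3K27ac and -0.17 to -0.05 between the antibodies. In the labels, replicates of different groups share only a number. Their deviations correlated at -0.03 for EBF2 and -0.12 for H3K27ac, which cannot show whether they shared a culture or day. A replicate block left the log2 differences at 0.20 and -0.05, with 0.5 the smallest p possible (exact permutation test). A crossed pairing, added after seeing the data, gave 0.20 and -0.05 as well. Depth is unknown, so a region absent from a list may hold signal below its threshold.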
